A study of Mus musculus with 8 samples.

Results

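The 10 genes described here are crypt stem cell and Wnt target genes of the colon: Lgr5, Ascl2, Smoc2, Axin2, Sox9, Cd24a, Prom1, Rnf43, Znrf3 and Myc. They were chosen by name, with earlier results of these data known. All 10 were measured, among 22180 genes in all. Each is read from 1 probe set, the one with the highest mean where a gene had several. The arrays hold RNA from the colon of female C57BL/6 mice 2 days after transplantation, when graft-versus-host disease of the gut is at an early stage. Every recipient had 5 days of busulfan and cyclophosphamide and then received 15000000 bone marrow cells and 2000000 T cells. Donors were LP/J mice in the allogeneic group (n = 4) and C57BL/6 mice in the syngeneic group (n = 4), so that conditioning and marrow transfer were common to both groups and the donor strain differed. Cells were sorted from digested colon as CD45-CD11b-CD31+, a gate for endothelium, and the series' design text names 1 mouse per sample. The recipients' ages were not among the labels used here, and no untreated group was analysed.

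Stem cells at the base of colonic crypts divide under the control of Wnt ligands, which keep beta-catenin from being degraded so that it can switch on target genes with TCF factors. R-spondins strengthen that signal by binding LGR receptors and clearing the ubiquitin ligases RNF43 and ZNRF3, which otherwise remove Frizzled receptors from the cell surface. Several targets, Axin2, Rnf43 and Znrf3 among them, encode inhibitors of the pathway and so form negative feedback. Some of these genes are also used outside the epithelium, Smoc2 in stromal cells, Cd24a in leukocytes and Myc in nearly any dividing cell.

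Values are log2 signals normalized by RMA (robust multi-array average), a scale on which 1 unit is a 2-fold difference. The sort markers were present, with Pecam1 at 10.1 ± 0.32 in allogeneic and 10.6 ± 0.80 in syngeneic arrays and Cdh5 at 9.69 ± 0.41 and 10.3 ± 0.86 (n = 4 each, SD). Epithelial transcripts were strong on every array too: the means of 15 pan-epithelial markers lay between 10.1 and 10.2 in allogeneic arrays and between 9.67 and 10.2 in syngeneic arrays, and the keratin gene Krt8 averaged 12.0 and 11.8. The 10 genes are named for crypt epithelium and the gate for endothelium, and the cell type behind each value was not tested. Syngeneic arrays 3 and 4 stood apart, with means of 18 pan-endothelial markers of 9.02 and 9.88 against 7.66 to 8.36 on the other 6 arrays. Within the allogeneic group, arrays 3 and 4 (8.36 each) were also above arrays 1 and 2 (7.66 and 7.73). Results that rest on syngeneic arrays 3 and 4 are given with and without them. In bulk RNA, fewer cells of a type and less RNA per cell cannot be told apart.

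None of the 10 genes passed the test between donor types. Adjusted over all 22180 genes in limma (threshold 0.05), 0 of 10 were called. Over all genes 0.469% were called (0.356% higher and 0.113% lower), so a count of 0 among 10 is near the background. The 10 genes were chosen with earlier results of these data known. Counts set beside all genes here therefore describe them and are no test of the set. Of the 10, 9 had a higher mean in the allogeneic group, where 49.0% of all genes did, and the exception was Myc. When syngeneic arrays 3 and 4 were left out that number was 7, against 50.0% of all genes, with Lgr5 and Smoc2 on the other side of 0. The median log2 difference was 0.39 over the 10 genes and -0.01 over all genes. At an unadjusted p below 0.05, 4 genes were higher (Sox9, Cd24a, Axin2 and Znrf3) and 1 was lower (Myc), against 7.81% and 5.43% of all genes. When both arrays were left out, 2 genes were higher by that measure, Sox9 and Cd24a, against 6.20% of all genes, and 0 were lower. The groups did not overlap for 2 of the 10 genes, Sox9 and Cd24a, both with all allogeneic arrays above all syngeneic ones, a pattern held by 5.18% of all genes (3.36% had it the other way round, 8.55% in all).

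**Figure D1:**
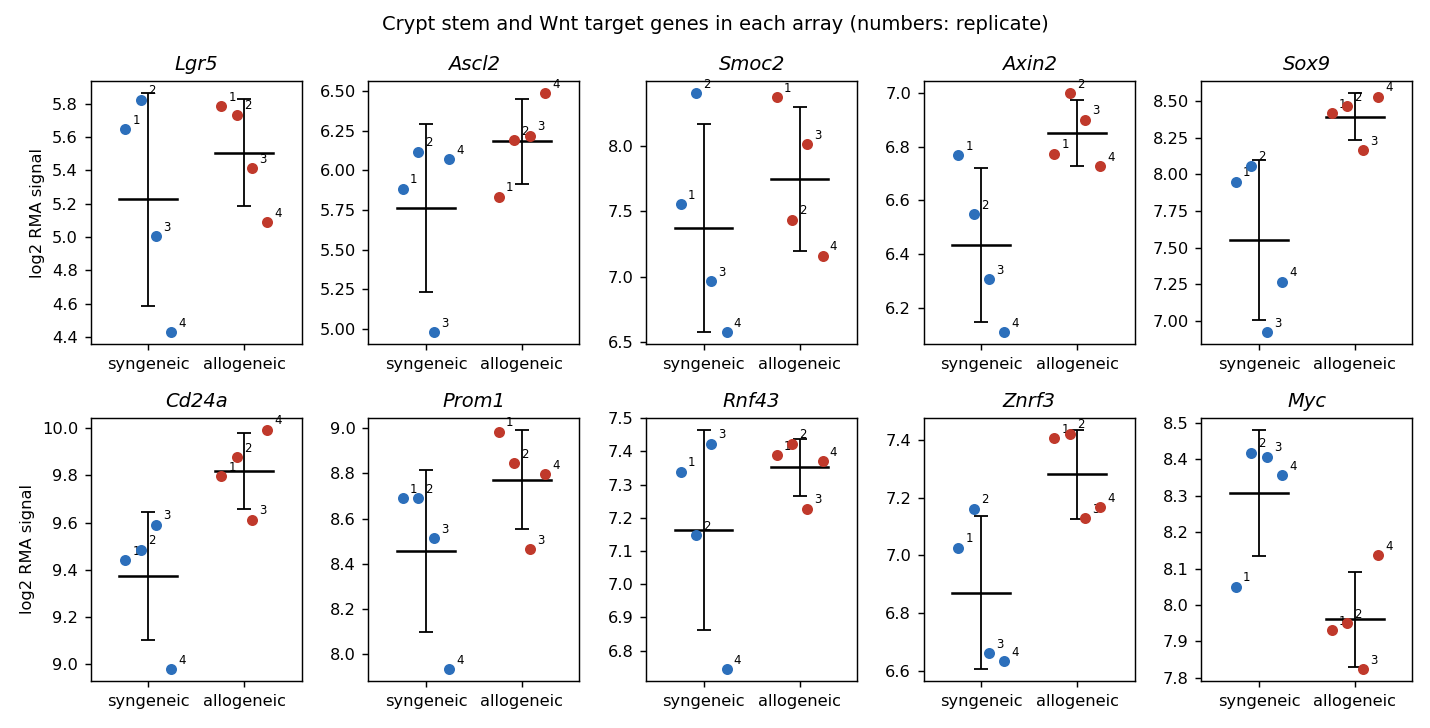
Log2 RMA signal (vertical axis, scaled per panel) of each of the 10 genes in the 4 syngeneic (blue) and 4 allogeneic (red) arrays; points are arrays numbered by replicate, horizontal bars are means and whiskers are SD. Only Sox9 and Cd24a show no overlap between groups, and syngeneic array 4 is the lowest of all 8 arrays for 7 of the 10 genes.

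Among the transcription factors of the crypt base, Sox9, an HMG box factor of stem and progenitor cells, had the largest difference of the 10. It read 8.42, 8.47, 8.16 and 8.53 in the 4 allogeneic arrays and 7.95, 8.06, 6.92 and 7.27 in the 4 syngeneic arrays. All allogeneic values lay above the highest syngeneic one, and syngeneic arrays 3 and 4 were below the other syngeneic arrays. Group means were 8.40 ± 0.16 and 7.55 ± 0.55 (n = 4 each, SD), a log2 difference of 0.85 ± 0.24 (SE) or 1.80-fold. Over all genes it missed the threshold (limma adjusted p = 0.153, unadjusted p = 0.00483). The 95% interval of the difference ran from 0.32 to 1.37. Without syngeneic arrays 3 and 4 it was 0.39 (interval 0.07 to 0.71), less than the former size but in the same direction.

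Ascl2, a basic helix-loop-helix factor that specifies crypt stem cells, read 5.84, 6.19, 6.22 and 6.49 in allogeneic arrays and 5.89, 6.12, 4.98 and 6.07 in syngeneic arrays. Syngeneic array 3 was the lowest of all 8 arrays, and the other 3 syngeneic arrays fell inside the allogeneic range. The log2 difference was 0.42 ± 0.25 (SE), with an interval from -0.14 to 0.98 (limma adjusted p = 0.516). Without syngeneic array 3 it was 0.16.

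Lgr5, the R-spondin receptor that defines the crypt base stem cell, was dim. Its allogeneic values were 5.79, 5.73, 5.41 and 5.09 and its syngeneic values 5.65, 5.83, 5.00 and 4.43, on either side of the median gene of an array (5.30 to 5.35). The syngeneic values spread wider than the allogeneic ones and lay on both sides of them, with array 2 above every allogeneic array, arrays 3 and 4 below, and array 1 within their range. The log2 difference of 0.28 ± 0.29 (SE) missed the threshold (limma adjusted p = 0.740), with an interval from -0.36 to 0.92 that leaves room for a difference in either direction. The sign turned without syngeneic arrays 3 and 4, to -0.23 (interval -0.72 to 0.27).

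Smoc2, a secreted matricellular protein that is enriched in Lgr5-positive cells, varied more within groups than any other of the 10. It read 8.37, 7.44, 8.01 and 7.16 in allogeneic arrays and 7.55, 8.40, 6.97 and 6.58 in syngeneic arrays. Both groups spanned more than 1 log2 unit and overlapped. Its log2 difference was 0.37 ± 0.38 (SE, limma adjusted p = 0.736), and it was -0.23 without syngeneic arrays 3 and 4. The fibroblast marker Pdgfra, at 6.02 ± 0.70 in allogeneic and 4.99 ± 0.71 in syngeneic arrays (n = 4 each, SD), also varied within both groups. It had the most positive difference of 12 fibroblast and smooth muscle markers, of which 6 were negative, and the median of that list was -0.05. The part of stromal cells in the Smoc2 signal was not tested.

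The 2 surface proteins used to isolate crypt cells were bright. Cd24a, a GPI-anchored mucin-like protein, read 9.80, 9.88, 9.61 and 9.99 in allogeneic arrays and 9.44, 9.49, 9.59 and 8.98 in syngeneic arrays. The groups did not overlap, but allogeneic array 3 (9.61) and syngeneic array 3 (9.59) all but met. The log2 difference was 0.45 ± 0.15 (SE), or 1.36-fold, with an interval from 0.12 to 0.77 (limma adjusted p = 0.215). A second probe set of Cd24a was dimmer and differed more. It read 7.63, 7.21, 7.22 and 7.11 in allogeneic arrays and 6.68, 6.28, 6.26 and 5.83 in syngeneic arrays, again without overlap, a log2 difference of 1.03 ± 0.20 (SE) or 2.05-fold. Tested among all 41345 probe sets, it did not pass either (limma adjusted p = 0.122). The 2 probe sets thus shared a direction and disagreed on size. The position and strand of each were not known, and the dimmer one may not read Cd24a alone.

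Prom1, the membrane protein CD133 of apical protrusions, read 8.98, 8.84, 8.46 and 8.80 in allogeneic arrays and 8.69, 8.69, 8.51 and 7.94 in syngeneic arrays. Allogeneic arrays 1, 2 and 4 lay above every syngeneic array, and allogeneic array 3 fell below all of them but syngeneic array 4. The log2 difference was 0.32 ± 0.19 (SE, limma adjusted p = 0.511), and 0.08 without syngeneic arrays 3 and 4.

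The feedback inhibitors of the pathway came next. Axin2, a scaffold of the complex that marks beta-catenin for degradation and a widely used readout of Wnt signalling, is a gene for which RefSeq gives a promoter, as it does for Mmp7, a further Wnt target that comes up below. Both windows are shown because these genes are classical targets, and both run from 250 bases before to 50 after the start of the gene in build GRCm38.p6. They were searched on both strands for the TCF/LEF motifs CTTTGAA and CTTTGAT, which cannot overlap each other on one strand, and capitals mark a match.
Axin2, chr11:108920099-108920398, plus strand: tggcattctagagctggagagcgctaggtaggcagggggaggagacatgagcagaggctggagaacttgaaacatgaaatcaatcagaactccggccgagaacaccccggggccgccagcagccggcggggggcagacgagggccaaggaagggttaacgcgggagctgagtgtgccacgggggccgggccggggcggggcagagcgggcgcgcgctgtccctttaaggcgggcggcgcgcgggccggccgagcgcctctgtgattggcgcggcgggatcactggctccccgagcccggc
Mmp7, chr9:7691840-7692139, plus strand: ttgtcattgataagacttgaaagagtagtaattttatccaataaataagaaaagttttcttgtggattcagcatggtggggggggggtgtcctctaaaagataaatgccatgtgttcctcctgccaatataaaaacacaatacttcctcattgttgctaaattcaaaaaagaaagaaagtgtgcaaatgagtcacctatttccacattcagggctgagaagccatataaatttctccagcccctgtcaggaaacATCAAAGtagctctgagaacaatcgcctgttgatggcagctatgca
The Axin2 window held no match, nor did any of the 6 windows of the 4 genes with an entry (Ascl2, Axin2, Prom1 and Rnf43). The Wls window, not shown, held none either. The Mmp7 window shown held CTTTGAT once, on the opposite strand, from base 255 of the window, which is just after the start. A further Mmp7 window, from a later start, overlaps it and holds the same match, 247 bases before that start. Of 17 other Wnt target genes with an entry, Mmp7 among them, 3 had a match. Of all 32851 promoter windows of this length, 8.65% held a match. That share counts single windows, while the 3 of 17 counts genes. A gene can have several windows, so the shares are not alike. A match is a string of letters, and its absence says only that these letters are not in the window.

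Axin2 read 6.78, 7.00, 6.90 and 6.73 in allogeneic arrays and 6.77, 6.55, 6.31 and 6.11 in syngeneic arrays. Only syngeneic array 1 reached into the allogeneic range. Group means were 6.85 ± 0.12 and 6.43 ± 0.29 (n = 4 each, SD), a log2 difference of 0.42 ± 0.16 (SE) or 1.34-fold with an interval from 0.06 to 0.78. That did not pass over all genes (limma adjusted p = 0.304, unadjusted p = 0.0277). A second, dimmer probe set of Axin2, at 4.18 to 4.74, had a log2 difference of -0.15 ± 0.14 (SE), and the second one of Lgr5, at 3.98 to 4.21, one of -0.02 ± 0.11. Where these dimmer probe sets lie, on which strand, and whether they read a related transcript was not known, so their values may not stand for the named genes.

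Znrf3, a membrane-bound ubiquitin ligase against Frizzled, read 7.41, 7.42, 7.13 and 7.17 in allogeneic arrays and 7.03, 7.16, 6.66 and 6.63 in syngeneic arrays. Its groups overlapped only through syngeneic array 2 and allogeneic array 3. The log2 difference was 0.41 ± 0.16 (SE), with an interval from 0.05 to 0.77 (limma adjusted p = 0.304). Rnf43, its close relative with the same function, read 7.39, 7.42, 7.23 and 7.37 in allogeneic arrays and 7.34, 7.15, 7.42 and 6.75 in syngeneic arrays. Here 2 syngeneic arrays lay within the narrow allogeneic range (7.23 to 7.42), and the log2 difference of 0.19 ± 0.16 (SE) had an interval from -0.17 to 0.55 (limma adjusted p = 0.676). For Axin2, Znrf3 and Rnf43 the differences without syngeneic arrays 3 and 4 were 0.19, 0.19 and 0.11, each with an interval that included 0.

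Myc, the transcription factor of growth and a Wnt target in colonic crypts, had the only negative difference. Its values were 7.93, 7.95, 7.82 and 8.14 in allogeneic arrays and 8.05, 8.42, 8.41 and 8.36 in syngeneic arrays. Except for allogeneic array 4 and syngeneic array 1 the groups were apart. Means were 7.96 ± 0.13 and 8.31 ± 0.17 (n = 4 each, SD), and the log2 difference of -0.35 ± 0.13 (SE) had an interval from -0.64 to -0.05 (limma adjusted p = 0.290). Without syngeneic arrays 3 and 4 it was -0.27, with an interval from -0.63 to 0.08 that included 0. In syngeneic arrays 3 and 4, where most of the other 9 genes were low, Myc was among the higher values.

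**Figure D2:**
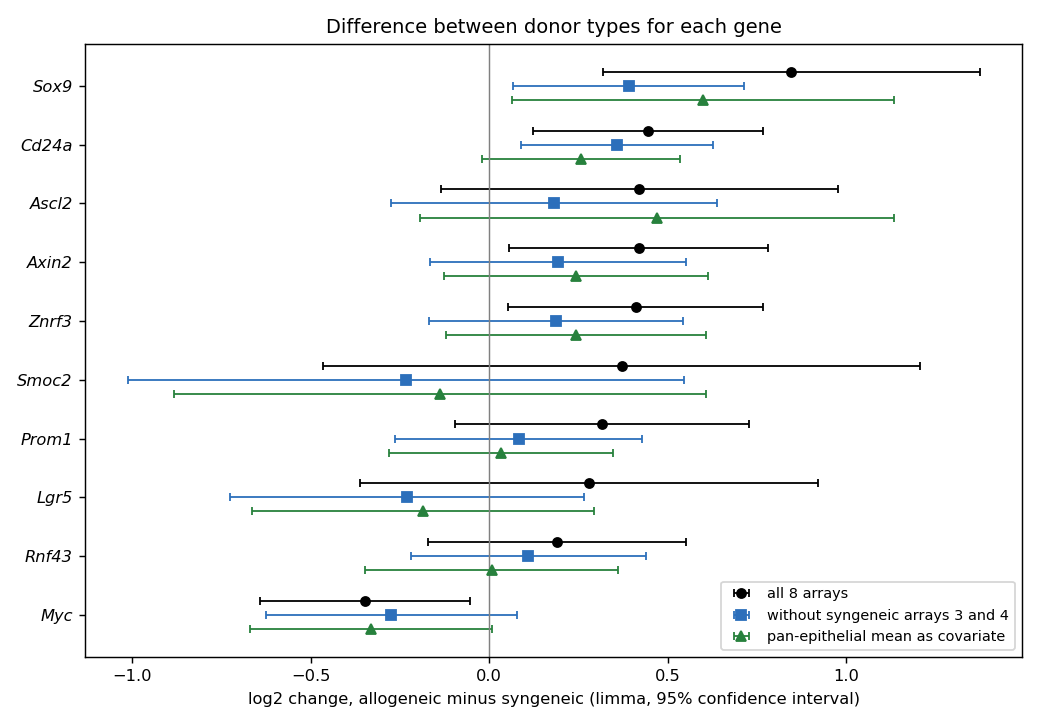
Log2 difference of each gene, allogeneic minus syngeneic (horizontal axis), with its 95% confidence interval from limma, using all 8 arrays (black), without syngeneic arrays 3 and 4 (blue) and with each array's pan-epithelial mean as a covariate (green). The intervals of Sox9 stay above 0 in all 3 fits, and the points of Lgr5 and Smoc2 cross to the other side of 0 in the latter pair.

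Variation between arrays was shared by most of the genes. Syngeneic array 4 was the lowest of the 8 arrays for 7 genes and syngeneic array 3 for 2, and for 5 genes these were the lowest pair. Syngeneic array 4 lay below every allogeneic array for 8 genes and syngeneic array 3 for 7, against 3 for syngeneic array 1 and 4 for syngeneic array 2. Such counts were not made over all genes, so whether the pattern is particular to these 10 was not tested. Array means over the 10 genes were 7.67, 7.63, 7.50 and 7.55 in allogeneic arrays and 7.43, 7.59, 7.08 and 6.91 in syngeneic arrays. Syngeneic array 2 was thus level with the allogeneic arrays. The same arrays differed in marker genes of both main cell types. All 18 pan-endothelial markers had a negative log2 difference (median -0.66), and 13 of 15 pan-epithelial markers a positive one (median 0.17). Without syngeneic arrays 3 and 4, 10 of the 18 endothelial markers were negative (median -0.004) and 8 of the 15 epithelial markers positive (median 0.03). Summed on the linear scale, the endothelial signal ran from 4908 to 8706 in allogeneic and from 6296 to 23770 in syngeneic arrays, and the epithelial signal from 24901 to 25373 and from 18188 to 25292. No marker was at 0, a value that RMA signals do not reach in this table. The part of cell type makeup in the 10 genes' differences was not tested by these values.

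**Figure D3:**
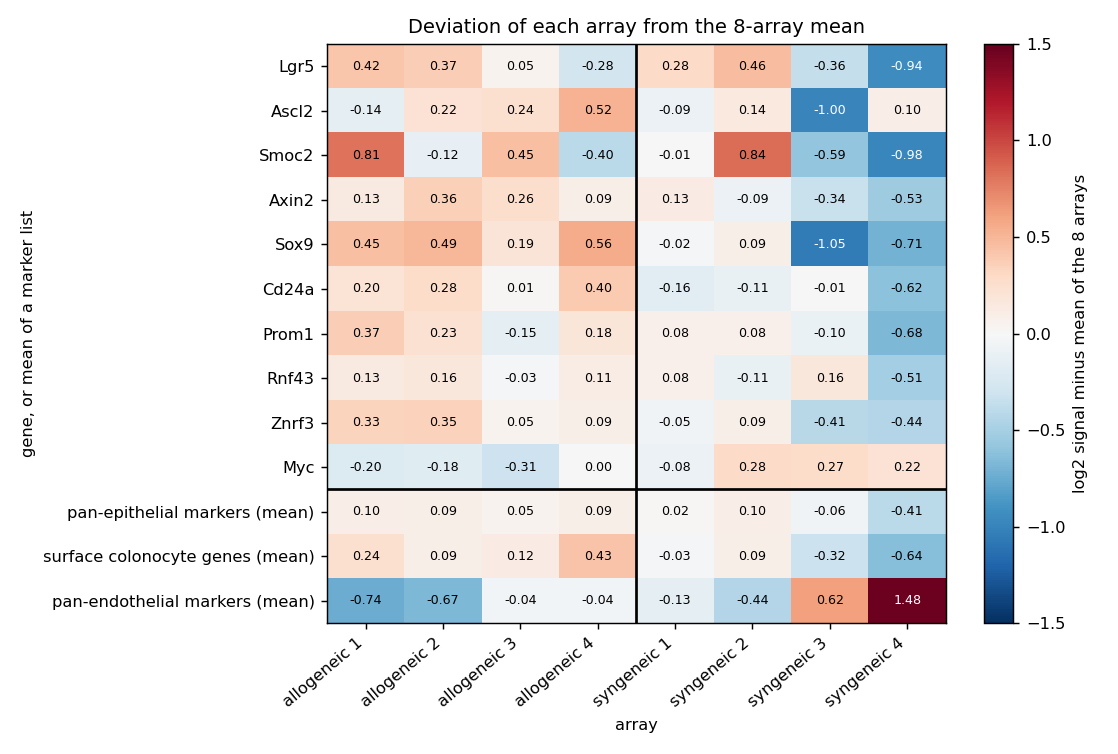
Log2 signal of each gene, and of the means of 3 marker lists, minus its own mean over the 8 arrays; columns are arrays, rows are genes or lists, and red is above and blue below the mean. Syngeneic arrays 3 and 4 are blue for most of the 10 genes and for the epithelial lists and red for Myc and the endothelial list.

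Set against the epithelial signal, the median difference was smaller. With the pan-epithelial mean of each array subtracted, the median log2 difference of the 10 genes was 0.22 in place of 0.39. This scaling moves every gene's difference by the same amount, and the median of all genes went to -0.18. The distance between the 10 genes and all genes was therefore bound to stay the same. With that mean as a covariate the median was 0.14, with the pan-endothelial mean 0.11, and without syngeneic arrays 3 and 4 it was 0.15. In each of these last 3 fits, 7 of the 10 genes had a positive difference. Lgr5 and Smoc2 were negative along with Myc. Sox9 kept the largest size, at 0.60 and 0.52 with these covariates (limma adjusted p = 0.397 and 0.443).

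Among the other genes of the Wnt pathway few separated the groups. Of 25 ligands, R-spondins and genes of ligand secretion, 1 passed (Wls) and the median log2 difference was -0.02. Wls, the carrier that brings Wnt ligands to the cell surface, read 8.61, 8.77, 8.73 and 8.99 in allogeneic arrays and 8.15, 8.19, 8.07 and 8.08 in syngeneic arrays. Every allogeneic array was above every syngeneic one, and syngeneic arrays 3 and 4 did not stand apart. Wls was 1.57-fold higher in the allogeneic group (log2 difference 0.65 ± 0.12 SE, limma adjusted p = 0.0493), at the edge of the threshold. It was not called without syngeneic arrays 3 and 4, nor when any 1 of the 8 arrays was left out. Without those 2 arrays its log2 difference was 0.60 (interval 0.30 to 0.91, limma adjusted p = 0.141). Wnt2b, a ligand of the crypt niche, had a log2 difference of -0.47 (limma adjusted p = 0.350) and Rspo4 one of -0.29 (limma adjusted p = 0.377). Rspo3, a main R-spondin of the colonic stroma that was picked after its values were seen, differed by 0.04.

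Of 17 Wnt receptors 0 were called and 13 had a positive difference, with a median of 0.11. The direction turned without syngeneic arrays 3 and 4, where 7 were positive and the median was -0.04. Lgr4, the broadly expressed relative of Lgr5, was at 7.80 ± 0.20 in allogeneic and 7.28 ± 0.45 in syngeneic arrays (n = 4 each, SD). Its log2 difference was 0.52 (limma adjusted p = 0.325), and 0.18 without syngeneic arrays 3 and 4 (interval -0.20 to 0.57). The Frizzled genes Fzd8 and Fzd3 had differences of 0.33 and 0.51 (limma adjusted p = 0.311 for Fzd8). Among 22 signal transducers 0 were called, the median was 0.04, and Ctnnb1, which encodes beta-catenin itself, had a difference of 0.26 (limma adjusted p = 0.411). Tnks (0.28), a tankyrase that destabilizes axin, and Bcl9l (-0.23), a coactivator of beta-catenin, were as close to 0. Of 16 antagonists 0 were called and the median was -0.04 (0.09 without syngeneic arrays 3 and 4). Wif1, which binds Wnt ligands outside the cell, had a difference of -0.66 (limma adjusted p = 0.208), Nkd1, an intracellular feedback inhibitor, one of 0.41 (limma adjusted p = 0.328) and Dkk1 one of 0.27 (limma adjusted p = 0.609).

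Other Wnt targets lay on both sides of 0. Of 20 measured, 8 had a positive and 12 a negative difference (median -0.07), and 1 passed, toward lower values. Mmp7, the matrix protease matrilysin, whose promoter is shown above, read 9.07, 8.76, 8.70 and 8.37 in allogeneic arrays and 9.62, 9.48, 10.2 and 9.96 in syngeneic arrays. All allogeneic values lay below all syngeneic values. It was 2.14-fold lower in the allogeneic group (log2 difference -1.10 ± 0.19 SE, limma adjusted p = 0.0387), and lost the call without syngeneic arrays 3 and 4 and when any 1 array other than syngeneic array 2 was left out. Without syngeneic arrays 3 and 4 its log2 difference was -0.83 (interval -1.23 to -0.43, limma adjusted p = 0.130). Plaur, the urokinase receptor, had a difference of -1.22 (limma adjusted p = 0.098) and the helix-loop-helix inhibitor Id1 one of -0.45 (limma adjusted p = 0.238). Without syngeneic arrays 3 and 4 Plaur was at -0.84 and Id1 at -0.31, the latter with an interval from -0.66 to 0.04. For these targets as for Myc the difference was negative where Axin2, Rnf43 and Znrf3 had positive ones. Mmp7, Plaur and Id1 were named for the smallest p-values of the list, and its 8 positive genes include the feedback inhibitor Nkd1 (0.41).

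Other stem and progenitor genes of the crypt mostly had positive differences, and 0 of 19 passed. Of these, 15 had a positive difference (median 0.27), 7 at an unadjusted p below 0.05 and 6 without overlap between groups. All 7 and all 6 were higher in the allogeneic group. In that direction these patterns were held by 7.81% and 5.18% of all genes, and in either direction by 13.2% and 8.55%. Without syngeneic arrays 3 and 4 the count at an unadjusted p below 0.05 was 4, against 2377 of all 22180 genes in either direction. Foxq1, a forkhead factor of the epithelium, read 7.13, 6.95, 6.76 and 7.37 in allogeneic arrays and 6.57, 6.22, 6.21 and 6.23 in syngeneic arrays. Its log2 difference of 0.75 ± 0.16 (SE) had a limma adjusted p of 0.0869. The potassium channel gene Kcnq1 had a difference of 0.66 and the progenitor factor Sox4 one of 0.40, the next in order of p-value and not of size. Olfm4, a stem cell marker of the small intestine that was picked after its values were seen, was dim, at 3.65 and 4.09. The median of this list was 0.07 without syngeneic arrays 3 and 4. Foxq1 was then at 0.655, Kcnq1 at 0.39 and Sox4 at 0.51.

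Differentiated and secretory genes of the epithelium had mostly positive differences as well. Of 10 genes of deep crypt secretory cells, which neighbour the stem cells of the colon and support them, 8 were positive (median 0.27) and 0 passed. Among them Kit, the receptor tyrosine kinase used to isolate these cells, read 8.39, 8.68, 7.87 and 8.27 in allogeneic arrays and 7.74, 7.52, 7.60 and 7.62 in syngeneic arrays. These groups did not overlap, and its log2 difference was 0.69 ± 0.17 (SE, limma adjusted p = 0.112). Spdef, a factor of secretory cells, was at 0.48 and the secreted lectin gene Reg4 at 0.99 (limma adjusted p = 0.215 and 0.283). Without syngeneic arrays 3 and 4 the median of the list was 0.27 again, but Spdef was at 0.27 and Reg4 at 0.52, with Kit at 0.675.

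Of 18 surface colonocyte genes 17 were positive (median 0.37) and 0 passed. Aqp8, a water channel of surface cells, had a difference of 1.53 ± 0.30 (SE, limma adjusted p = 0.0575) and the smallest p-value of the list. The sulfate transporter gene Slc26a2 (0.75) and the guanylin gene Guca2a (0.73) came next by p-value. Proliferation genes had mostly negative differences, 14 of 17 (median -0.08), 0 passed, and Rrm2, a subunit of ribonucleotide reductase, was at -0.54 (limma adjusted p = 0.270) with Cdc20 at -0.44 and Birc5 at -0.41. Without syngeneic arrays 3 and 4 the medians of these 2 lists were 0.10 and -0.30. Of the colonocyte genes named, Aqp8 was then at 1.47, Slc26a2 at 0.49 and Guca2a at 0.45.

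**Figure D4:**
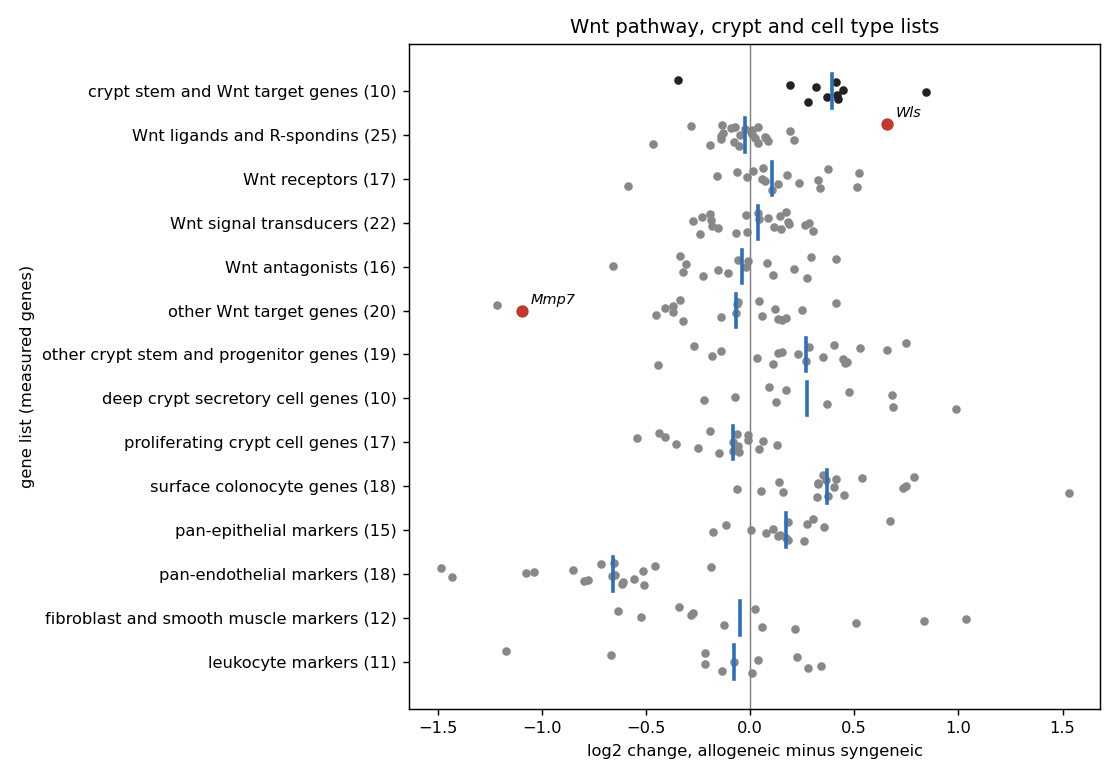
Log2 difference, allogeneic minus syngeneic (horizontal axis), of each measured gene (point) in the 10 genes and 13 further lists, with list medians as blue bars and genes that passed limma's adjusted threshold of 0.05 in red. The 10 genes lie to the right of 0 except Myc, and only Wls and Mmp7 passed among the listed genes.

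Markers of other cell types the gate could hold lay on both sides of 0. Of 12 fibroblast and smooth muscle markers 6 were positive and 6 negative (median -0.05, or 0.08 without syngeneic arrays 3 and 4, 0 called), and array means ran from 7.91 to 8.71 in allogeneic and from 7.89 to 8.47 in syngeneic arrays. Of 11 leukocyte markers 5 were positive and 6 negative (median -0.08, 0 called), with Ptprc, which encodes CD45, at 5.20 and 5.19 and Itgam, which encodes CD11b, at 5.27 and 5.41. Among the leukocyte list Ly6g, a neutrophil marker, had a difference of -1.17 (limma adjusted p = 0.222).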

How the data were processed

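For 8 arrays the authors deposited log2 signals of probe sets; the submitters' processing notes name RMA and Affymetrix Expression Console 1.4.1. RMA corrects background, normalizes quantiles and summarizes probes; the sources used here do not give its probe annotation. Without scanner files no detection call was used, so a low value is a low signal. The number of arrays limits the precision. Of 41345 probe sets, 23521 had exactly 1 gene symbol in the platform annotation, 1814 several and 16010 none; only the first kind was named. The probe set with the highest mean stood for each of 22180 genes. Groups and replicate numbers came from the titles. A model with 1 coefficient for donor type was fitted with limma 3.58.1 in R 4.3.3 (lmFit, eBayes with trend), with no filter and Benjamini-Hochberg adjustment over all genes at 0.05. The fit was tested on simulated data.

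The 10 genes and the 13 other lists (221 of 229 distinct genes measured, the 10 included) were chosen with earlier results of these data known. Named genes are the 10, up to 3 with the smallest p in each list, any that passed, and 6 sort and cell type markers; others are marked where named. Alternatives covered the variance prior, a filter on dim genes, the probe set rule, scaling, array weights, the replicate number as a block, cell type covariates, the threshold and arrays left out. Over all genes, the deviations of same-numbered arrays from their group means correlated at 0.06, 0.05, -0.10 and 0.10. Such a correlation cannot show whether some genes vary with the replicate number. Pan-endothelial means were highest in arrays 3 and 4 of both groups. Whether same-numbered arrays shared handling was not tested. Slides and dates were not used here. Promoters were taken from RefSeq (GRCm38.p6).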

Additional observations from a re-analysis of the deposited data

Results flagged for a closer look

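In 136 groups of 4 arrays (the genes named and the array means of lists), 9 held an array whose gap to the nearest of the others, as a share of the group's range, was above Dixon's 95% critical value, where chance gives about 1 in 20. Among the 10 genes this was so for Myc alone (share 0.833), with syngeneic array 1 at 8.05 below the others (8.36 to 8.42). For syngeneic array 3 in Ascl2 the gap was wider in log2 units, but its share, 0.796, was under that value. Foxq1 was apart in syngeneic array 1, at 6.57 above 6.21 to 6.23. Syngeneic array 4 was low for Reg4, at 8.74 against 10.5 to 10.7, and for the mean of deep crypt secretory genes, at 9.10 against 9.59 to 9.66. Syngeneic array 3 was low for Dkk1, at 4.13 against 4.80 to 4.92. Allogeneic array 4 was high for Wif1, at 5.86 against 5.29 to 5.36, high for the mean of the Wnt receptors, at 6.59 against 6.29 to 6.32, and low for Birc5, at 6.70 against 7.62 to 7.67. Allogeneic array 2 had the lowest mean of other Wnt targets, at 7.12 against 7.19 to 7.20.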

How the results depend on the processing

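Of the 10 genes 0 were called, in either direction, under any of 21 alternatives or at a threshold of 0.10, and 204 of 210 changes kept their sign. The 6 others were those of Lgr5 (-0.18, -0.29 and -0.23) and Smoc2 (-0.14, -0.24 and -0.23) with the pan-epithelial and then the pan-endothelial covariate, and last without syngeneic arrays 3 and 4. Alternatives of the variance prior, the dim gene filter, the test over all probe sets and the replicate block could not change the differences. The signs under those were therefore fixed. The smallest adjusted p in limma was 0.0742 for Cd24a and 0.0803 for Sox9. The median change of the 10 genes lay between 0.23 and 0.48 when 1 array was left out.

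Counts over all genes (79 higher and 25 lower) moved far more. They were 138 and 55 among the brighter genes only, 11 and 6 over all probe sets, 39 and 11 with the pan-epithelial covariate, 19 and 9 with the pan-endothelial mean in its place, 26 and 12 without syngeneic arrays 3 and 4, and 203 and 102 at a threshold of 0.10. Quantile normalization again gave 46 higher and array weights 39 lower genes. Leaving out 1 array gave 4 to 145 higher and 4 to 35 lower genes.

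In the 13 other lists together 1 gene was higher and 1 lower. The count of higher genes was 2 among the brighter genes only and with array weights, 0 over all probe sets, with quantile normalization again, with either covariate and without syngeneic arrays 3 and 4, and 4 at a threshold of 0.10. The count of lower genes was 0 with the mean of a gene's probe sets, over all probe sets, with either covariate and without syngeneic arrays 3 and 4, and 2 at a threshold of 0.10. Leaving out 1 array gave 0 to 1 of each. With the replicate number as a block, 40 genes were higher and 28 lower over all genes, and 0 and 2 (Eng and Plvap) in the lists. Whether same-numbered arrays shared handling was not tested. The cause of these moves was not tested.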
